A study of Mus musculus with 4 samples.

Results

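The genes described here are 10 enzymes and core subunits that place, copy or remove repressive marks on chromatin: Dnmt1, Uhrf1, Dnmt3a, Dnmt3b, Tet1, Tet2, Tet3, Ezh2, Suz12 and Eed. They were chosen by name, by matching gene symbols, and make up 10 of the 54838 genes listed for each library. RNA was sequenced from Hepa1-6, a mouse hepatocellular carcinoma cell line, in 4 libraries. The control group, NC, is wild type for Acvr2a and has 2 libraries. The KO group carries an Acvr2a knockout in the same line and also has 2 libraries, and Acvr2a encodes a type II receptor for activins and related ligands. The series' text calls the knockout cells subclones. The labels do not say whether the KO libraries come from separate subclones, nor whether the replicates of a group are separate cultures, so p-values measure only the spread between these samples, and an effect of the knockout cannot be told apart from an effect of the clone.

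DNA methylation in mammals is a methyl group on cytosine, mostly where a C is followed by a G. Dnmt1 copies it onto the new strand behind the replication fork, and Uhrf1, which binds the half-methylated site left by replication, brings Dnmt1 there. Dnmt3a and Dnmt3b set methylation at sites that had none. The Tet enzymes oxidise the methyl group, which begins its removal. Ezh2 is the catalytic subunit of Polycomb repressive complex 2 (PRC2), which methylates lysine 27 of histone H3, and it is active only with Suz12, which holds the complex together, and Eed, which binds the mark already made. Liver tumours commonly carry high levels of the maintenance enzymes and of Ezh2.

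The libraries held between 11597945 and 13910593 counts, and 12510 genes had enough counts to be tested. Of those, 4741 genes passed an adjusted p of 0.05 by edgeR's quasi-likelihood test with Benjamini-Hochberg adjustment, 2459 higher in KO and 2282 lower. Acvr2a had 81 and 108 counts in the NC libraries and 75 and 97 in the KO libraries, so its total RNA did not separate the groups (log2 fold change -0.21, SE 0.20, adjusted p = 0.433). The labels do not give the edited part of Acvr2a, a count over the whole gene does not check the edit, and 446 of its exon bases overlap Orc4 on the opposite strand. The group names therefore follow the labels alone. Of 16 hepatocyte genes 12 were tested, of which 2 rose and 5 fell, the latter with Afp (-1.21) and Apoe (-0.93). Those that changed are 58.3% of the 12, beside 37.9% of all genes tested. The summed level of the 16 was 5782 to 6227 CPM (counts scaled to the library's size) in NC against 5007 to 5140 in KO, with Alb at 840.0 and 758 CPM in NC against 965 and 1151 in KO. Of 10 leukocyte genes 7 had any count, almost all of it Cd68, and Cd3e and Cd8a were at 0. Cd68 rose 2.30-fold (adjusted p = 1.34e-08 by edgeR), from 22.2 and 24.4 CPM in NC to 47.3 and 60.1 in KO, and the sum of the 10 genes went from 24.3 and 27.9 CPM to 51.7 and 63.7. The part of these marker genes in the results below was not tested. Of 9 fibroblast and stellate cell genes 7 had a count, summing to 1485 to 1494 CPM in NC against 1640 to 1719 in KO, mostly Dcn, with Col3a1 and Lum at 0. Of the 4 tested, 3 (75%) rose by edgeR, beside 19.7% of all genes tested. Col1a1 rose by 2.73 from 0.528 and 0.361 CPM in NC to 2.88 and 3.04 in KO, Des by 1.28 and Pdgfra by 0.97. Col1a1 entered the test through its KO counts alone. Of 8 endothelial genes 4 had a count, with at most 2.11 CPM in sum, and Cdh5, Tek, Emcn and Lyve1 were at 0. In bulk RNA, fewer cells with a transcript and less of it per cell cannot be told apart.

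The promoter sequences of the genes that changed, and of the PRC2 subunits Ezh2 and Suz12 beside them, show what the start sites of these genes look like. Sequences are RefSeq's for build GRCm38.p6, 5′ to 3′ on the gene's own strand, and each window runs from 250 bases before an annotated start to 50 after it. All 10 genes had at least 1 window. Capitals in the first 4 sequences mark matches to the E2F-type letters TTTCCCGC, TTTCGCGC, TTTGCCGC or TTTGGCGC on either strand. E2F factors drive genes of DNA replication through such letters, and a match here is a description of the sequence, not a site shown to be bound. In the Tet2 window, whose letters held no such match, capitals mark each CG pair. The Dnmt1 window at chr9:20952574-20952873 (minus strand) and the Uhrf1 window at chr17:56304063-56304362 (plus strand) are given whole. For Ezh2 (chr6:47594994-47595053, minus strand) and Suz12 (chr11:79992861-79992920, plus strand) 60 bases around the match are given. The Tet2 window lies at chr3:133544341-133544640 (minus strand).
Dnmt1: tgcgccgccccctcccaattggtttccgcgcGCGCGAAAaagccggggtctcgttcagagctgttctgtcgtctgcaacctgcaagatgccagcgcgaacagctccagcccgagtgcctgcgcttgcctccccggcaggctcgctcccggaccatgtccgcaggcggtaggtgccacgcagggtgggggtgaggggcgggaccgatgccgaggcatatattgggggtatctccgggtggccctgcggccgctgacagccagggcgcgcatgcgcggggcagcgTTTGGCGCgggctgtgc
Uhrf1: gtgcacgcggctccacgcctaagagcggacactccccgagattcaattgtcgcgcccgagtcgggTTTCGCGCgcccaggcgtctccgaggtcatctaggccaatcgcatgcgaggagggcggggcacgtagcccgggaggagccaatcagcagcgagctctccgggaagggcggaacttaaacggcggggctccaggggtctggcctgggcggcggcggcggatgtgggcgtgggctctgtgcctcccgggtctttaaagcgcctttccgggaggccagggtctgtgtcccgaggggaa
Ezh2: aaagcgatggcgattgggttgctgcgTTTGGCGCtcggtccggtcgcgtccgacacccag
Suz12: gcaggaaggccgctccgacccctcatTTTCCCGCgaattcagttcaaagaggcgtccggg
Tet2: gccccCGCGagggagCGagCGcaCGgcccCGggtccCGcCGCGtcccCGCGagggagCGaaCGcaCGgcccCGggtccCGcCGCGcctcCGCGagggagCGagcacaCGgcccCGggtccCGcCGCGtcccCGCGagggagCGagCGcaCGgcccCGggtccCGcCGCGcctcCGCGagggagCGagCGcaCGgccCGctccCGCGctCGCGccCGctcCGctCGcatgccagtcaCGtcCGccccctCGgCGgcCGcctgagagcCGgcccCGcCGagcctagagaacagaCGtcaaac

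The E2F-type letters occurred in 4 of the 10 genes, namely Dnmt1, Uhrf1, Ezh2 and Suz12. Over all 32851 windows of this length 2.26% held a match, and over all 27025 genes with a window 2.60% did. The letters themselves contain CG, and the matching windows of these genes held 31 to 41 CG pairs, against a median of 7 over all windows. The shares were not matched for CG pairs or for the number of windows a gene has. In Dnmt1 the matches began 219 bases before and 34 bases after the start annotated at chr9:20952623, in 1 of its 3 windows. Which annotated start these cells use was not tested, so the distances hold for that annotated start only. In Uhrf1 the match began 185 bases before the start in 1 of its 2 windows, in Ezh2 4 bases after the start and in Suz12 219 bases before it. Of 30 S phase genes with a window, from a list of replication and nucleotide synthesis genes, 14 held a match. Genes with and without the letters were found among those that changed and those that did not: Ezh2 and Suz12 held them and did not pass the test, and Tet2 lacked them and did. Eed, the other PRC2 subunit, lacked the letters and did not pass, and its window is not shown. The letters CCAAT, or ATTGG on the other strand, occurred in 6 of the 10 genes, beside 41.1% of all genes with a window and 37.4% of all windows. The letters ACGTG or CACGT, the core bound by hypoxia-inducible factors, occurred in 4 of the 10, beside 21.8% of all genes and 19.6% of all windows. The Tet2 window held 57 CG pairs, more than in 99.8% of all windows, whose median was 7, and the Dnmt1 and Uhrf1 windows shown held 33 each.

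Of the 10 genes, 9 had enough counts to be tested. Both maintenance genes fell in KO, Uhrf1 by 0.48 and Dnmt1 by 0.31 on the log2 scale. Tet2 rose 1.47-fold. The other 6 tested genes, Dnmt3a, Dnmt3b, Tet3, Ezh2, Suz12 and Eed, did not pass the test, and Tet1 had no count in any library. Thus 3 of 9 (33.3%) passed the threshold, beside 37.9% of all genes tested. The 1 higher gene stands beside 19.7% of all genes higher in KO and the 2 lower genes beside 18.2% lower, so the share of these genes that changed was near that of all genes and is not a result about them as a group. The median log2 fold change of the 9 genes was 0.02, against -0.0037 over all genes tested. In 6 of the 9 genes (66.7%) the CPM of the groups did not overlap, and the same held for 69.4% of all genes tested. On the authors' TPM scale (a share of transcripts, which divides by transcript length) the groups did not overlap in 4 of the 9 (44.4%), beside 62.7% of all genes. When the same comparison was fitted to log2 TPM, 2158 genes passed, of which 68.0% were higher in KO, against 51.9% in the fit to counts.

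**Figure D1:**
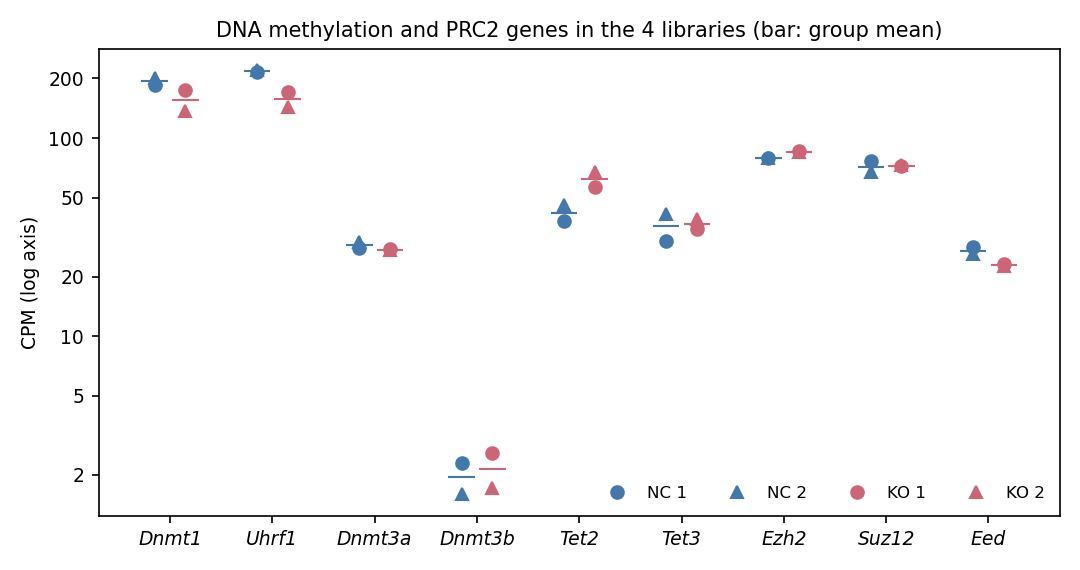
Level of the 9 measured genes in the 4 libraries, in CPM on a log axis, with 1 point a library (circles replicate 1, triangles replicate 2, blue NC, red KO) and group means as bars. Uhrf1 and Dnmt1 lie lower in both KO libraries than in both NC libraries, Tet2 lies higher, and Tet1, at 0, is not drawn.

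Uhrf1 was at 216 and 219 CPM in the NC libraries and at 170 and 143 CPM in KO 1 and KO 2. Both KO libraries lay below both NC libraries, and the NC libraries were nearly equal while the KO libraries differed from each other. The means were 218 ± 2.06 CPM in NC against 157 ± 19.4 CPM in KO (SD, n = 2 each), a log2 fold change of -0.48 (SE 0.10, 95% interval -0.67 to -0.28) with an adjusted p of 0.000292 by edgeR's quasi-likelihood test. The gene lies at chr17:56303321-56323486 on the plus strand (GRCm38). With 1 library left out at a time the log2 fold change stayed between -0.61 and -0.36 and passed the threshold each time. In the fit to log2 TPM it was -0.38, with an adjusted p of 0.0792 by limma, which does not pass.

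Dnmt1, at chr9:20907209-20959888 on the minus strand, was at 186 and 202 CPM in NC and at 175 and 137 CPM in KO. The groups did not overlap, but KO 1 lay close to the lower NC library and KO 2 well below the rest. The means were 194 ± 11.6 CPM in NC against 156 ± 26.6 CPM in KO (SD, n = 2 each). Its log2 fold change of -0.31 (SE 0.10, 95% interval -0.52 to -0.10) had an adjusted p of 0.0176 by edgeR. This call rested on single libraries. Without KO 2 the log2 fold change was -0.15 (adjusted p = 0.319 by edgeR), without NC 2 it was -0.24 (adjusted p = 0.144 by edgeR), and without KO 1 it was -0.49. In TPM the values were 39.8 and 45.5 in NC against 40.7 and 31.3 in KO, so the groups overlapped, and the fit to log2 TPM gave -0.25 (adjusted p = 0.280 by limma).

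Replication genes were also lower in the KO libraries. Of 37 genes of S phase and nucleotide synthesis, many of them known E2F targets, 21 fell in KO, 16 did not pass and none rose. The median log2 fold change was -0.38, against -0.0037 over all genes tested. The 21 that fell are 56.8% of the list, beside 18.2% of all genes tested. Examples are Mcm5, a subunit of the replicative helicase (-0.78, adjusted p = 3.73e-06 by edgeR), Rrm2, a subunit of ribonucleotide reductase (-0.88, adjusted p = 9.71e-07 by edgeR), and Tyms, which makes thymidylate (-1.10, adjusted p = 2.66e-07 by edgeR). Measured as the difference from a gene's own mean over the 4 libraries, on the log2(CPM + 0.5) scale, the median of the 37 genes was 0.22 and 0.19 in the NC libraries, -0.07 in KO 1 and -0.33 in KO 2. For Uhrf1 the same differences were 0.23, 0.25, -0.11 and -0.37, and for Dnmt1 0.10, 0.22, 0.01 and -0.33. KO 2 was the lowest library for the list and for both genes, and KO 1 lay between KO 2 and the NC libraries. The order of NC 1 and NC 2 was not shared: NC 2 was the higher for Uhrf1 and Dnmt1 and the lower for the list. The part of the S phase genes in the Uhrf1 and Dnmt1 results was not tested.

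**Figure D2:**
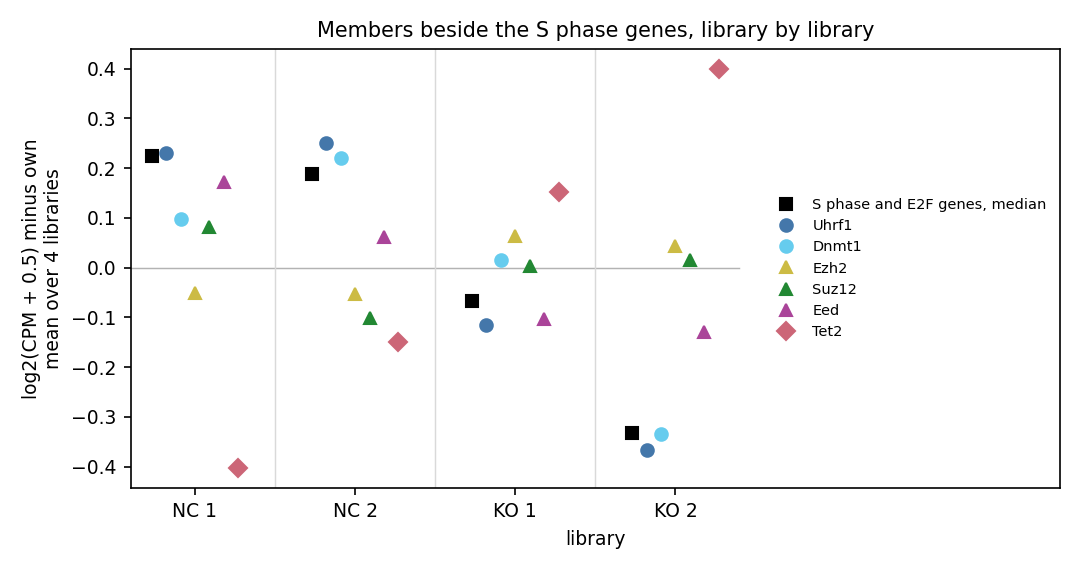
Difference of each gene from its own mean over the 4 libraries, in log2(CPM + 0.5), for Uhrf1, Dnmt1, Ezh2, Suz12, Eed and Tet2 and for the median of 37 S phase genes, with the libraries along the horizontal axis. Uhrf1 and Dnmt1 end at -0.37 and -0.33 in KO 2, next to -0.33 for the S phase median. Ezh2 and Suz12 stay between -0.10 and 0.08, while Eed goes from 0.17 in NC 1 to -0.13 in KO 2.

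The de novo methyltransferases were low and did not pass the test. Dnmt3a (chr12:3806007-3914443, plus strand) was at 27.7 and 30.0 CPM in NC and at 27.5 and 27.2 in KO. The 4 values lay close together, with both KO libraries just under both NC libraries. The log2 fold change was -0.08 (SE 0.12, 95% interval -0.32 to 0.16, adjusted p = 0.619 by edgeR), and its sign depended on the scale, at 0.13 in the fit to log2 TPM. Dnmt3b (chr2:153649450-153687730, plus strand) rested on 26 and 22 counts in NC against 34 and 23 in KO, or 2.29, 1.59, 2.58 and 1.70 CPM. The groups overlapped, and a log2 fold change of 0.16 (SE 0.38) had an interval of -0.61 to 0.93 (adjusted p = 0.777 by edgeR), so these counts do not settle its direction. It turned to -0.09 without NC 2 and to -0.17 without KO 1. Dnmt3a stood above Dnmt3b in TPM in each library, by 5.98- and 10.2-fold in NC and by 6.75- and 8.54-fold in KO, and these ratios overlapped between the groups. Dnmt1 made up 90.2% of the summed TPM of the 3 methyltransferases in both NC libraries and 87.5% and 87.2% in the KO libraries, while Dnmt3a made up 8.41% and 8.91% in NC against 10.9% and 11.4% in KO.

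Among the dioxygenases, Tet2 changed and Tet3 did not pass the test. Tet2 (chr3:133463679-133545139, minus strand) was at 38.3 and 45.7 CPM in NC and at 56.5 and 67.1 in KO. Both KO libraries were above both NC libraries, and the libraries also differed within each group. The means were 42.0 ± 5.27 and 61.8 ± 7.50 CPM (SD, n = 2 each), with a log2 fold change of 0.55 (SE 0.11, 95% interval 0.33 to 0.78) and an adjusted p of 0.000247 by edgeR. With 1 library left out it stayed between 0.42 and 0.70 and passed each time. In TPM the values were 15.7 and 24.1 in NC against 29.0 and 36.1 in KO, and the fit gave 0.71 (adjusted p = 0.0492 by limma) with 1 added to the TPM and 0.73 (adjusted p = 0.0502 by limma) with 0.1 added.

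Tet3 (chr6:83362373-83459084, minus strand) was at 30.3 and 41.6 CPM in NC and at 34.8 and 39.2 in KO. The KO values lay between the NC values. The log2 fold change was 0.03 (SE 0.13, 95% interval -0.22 to 0.29, adjusted p = 0.859 by edgeR), with -0.17 without NC 1, -0.06 without KO 2, 0.30 without NC 2 and 0.12 without KO 1. Tet1 (chr10:62804570-62908996, minus strand), which is best known from embryonic stem cells, had 0 counts in all 4 libraries. A count of 0 allows up to 3 counts, or 0.217 to 0.264 CPM in a single library and 0.0578 CPM over all of them, and covers counting error only. Tet2 held 80.1% to 85.0% of the summed TPM of the 3 dioxygenases in the 4 libraries, and the groups overlapped. The summed TPM was 18.7 and 30.1 in NC against 34.1 and 43.5 in KO. The share of Tet2 depends on the estimated transcript lengths, 2304 to 2837 bases for Tet2 against 6104 to 10811 for Tet3. In CPM per kilobase of annotated exon, the means of Tet2 and Tet3 were 2.49 and 2.15 in NC, with overlap. In KO they were 3.66 and 2.21.

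The PRC2 core did not pass the test in any of its 3 subunits. Ezh2 (chr6:47530139-47595341, minus strand) was at 79.2 and 79.1 CPM in NC and at 85.8 and 84.7 in KO. Both KO libraries lay above both NC libraries, and the libraries of each group were close together. The difference was small, at 0.11 on the log2 scale (SE 0.09, 95% interval -0.08 to 0.30, adjusted p = 0.387 by edgeR), and in the fit to log2 TPM it was 0.25 (adjusted p = 0.191 by limma). Suz12 (chr11:79993106-80034123, plus strand) was at 76.2 and 67.0 CPM in NC and at 72.0 and 72.7 in KO. Its KO values lay between the NC values. The log2 fold change was 0.02 (SE 0.10, 95% interval -0.18 to 0.22, adjusted p = 0.910 by edgeR), 0.11 without NC 1 and -0.068 without NC 2. Eed (chr7:89954654-89980983, minus strand) was at 28.1 and 25.9 CPM in NC and at 23.1 and 22.7 in KO. Both KO libraries were lower, yet a log2 fold change of -0.24 (SE 0.12, 95% interval -0.49 to 0.02) had an adjusted p of 0.133 by edgeR. In TPM the direction of Eed turned, with 32.4 and 23.3 in NC, 34.9 and 28.4 in KO and a fit of 0.19 (adjusted p = 0.486 by limma). Summed over the 3 subunits, PRC2 was at 101.5 and 89.3 TPM in NC and at 118.5 and 104.6 TPM in KO. On the TPM scale the median log2 fold change of all genes tested was itself 0.06. In CPM only Ezh2 lay higher in both KO libraries, while Suz12 overlapped and Eed was lower. The TPM sums are therefore not read as a rise of PRC2. Beside the S phase median, Ezh2 differed from its own mean by -0.05, -0.05, 0.06 and 0.04 in NC 1, NC 2, KO 1 and KO 2, and Suz12 by 0.08, -0.10, 0.0026 and 0.02. Eed, at 0.17, 0.06, -0.10 and -0.13, was below its own mean in both KO libraries, which lay close together.

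**Figure D3:**
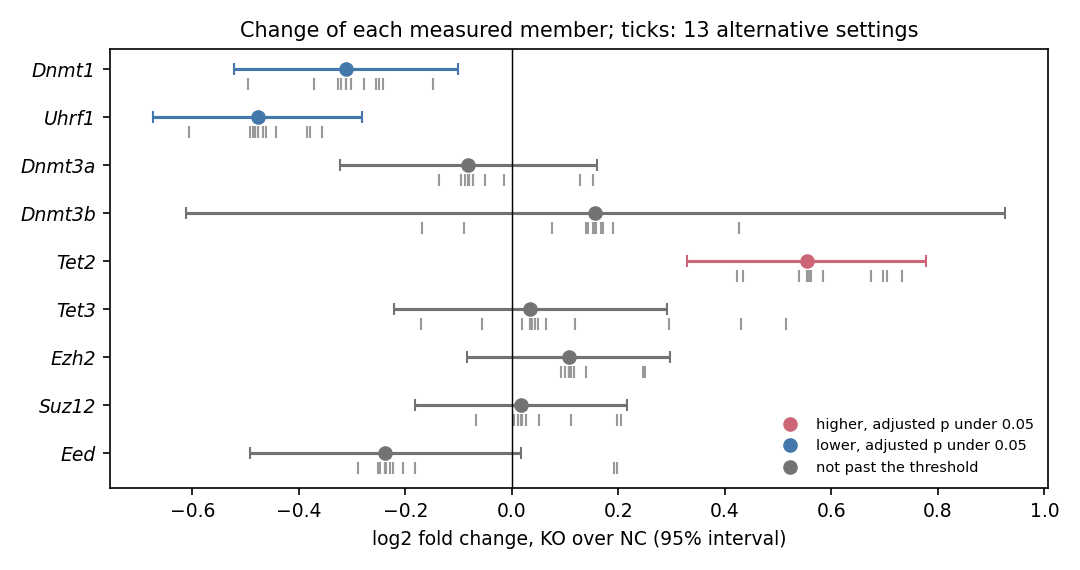
Log2 fold change of KO against NC for the 9 tested genes, each with its 95% interval from edgeR, and with a tick under it for each of 13 alternative settings. The intervals of Uhrf1, Dnmt1 and Tet2 do not cross 0, and those of the other 6 genes do.

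The transcript length used for the TPM differed between libraries for some of the genes. The deposited length of a gene is the mean length of its transcripts weighted by their estimated share, so it moves when the mix of transcripts is estimated differently. For Eed it was 1159 and 1487 bases in NC against 1009 and 1126 in KO, a ratio of 1.47 between the longest and the shortest. For Tet3 it was 10811 and 7995 bases in NC against 8136 and 6104 in KO, a ratio of 1.77, larger than in 96.8% of the genes tested. For Dnmt3a the range was 6524 to 8191 bases and for Tet2 2304 to 2837 bases, while the annotated Tet2 exons cover 16870 bases. The lengths of Dnmt1 and Uhrf1, which passed the test on counts and not on TPM, varied by ratios of 1.02 and 1.03. The mix of transcripts itself was not tested.

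**Figure D4:**
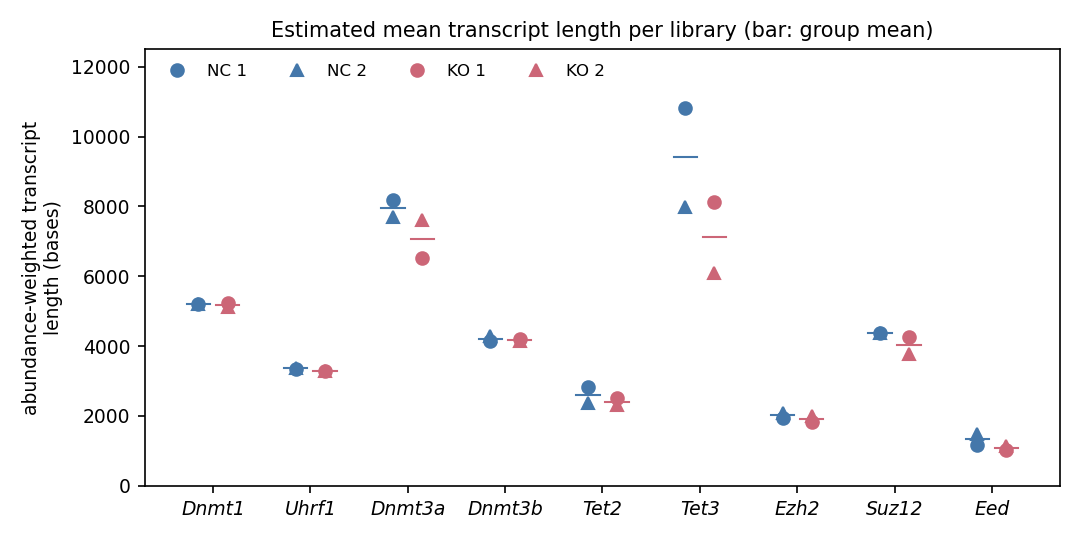
Share-weighted transcript length of each measured gene in bases, with 1 point a library (blue NC, red KO) and group means as bars. Relative to their own length Tet3 and Eed spread most of the 9 genes, with ratios of longest to shortest of 1.77 and 1.47, and Dnmt1 and Dnmt3b least, with 1.02 and 1.03.

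Levels of different genes can be set side by side only per length. In NC the mean TPM was highest for Uhrf1 (76.2), followed by Ezh2 (48.7) and Dnmt1 (42.7), with no overlap between neighbours in that order. Eed (27.8), Tet2 (19.9) and Suz12 (18.9) came next, and their neighbouring values overlapped between libraries. Tet3 (4.52) and Dnmt3a (4.11) overlapped with each other, above Dnmt3b (0.530) and Tet1, listed at 0. In KO, Uhrf1 (58.7) and Ezh2 (58.1) overlapped at the top, and Dnmt1 (36.0), Tet2 (32.5) and Eed (31.7) overlapped below them. Suz12 (21.8), Tet3 (6.26), Dnmt3a (4.58) and Dnmt3b (0.615) followed without overlap. The order depended on the length used: in CPM per kilobase of annotated exon, Dnmt1 stood next to Uhrf1 in both groups (26.3 in NC against 21.2 in KO), and Ezh2 (11.9 and 12.8) stood behind Suz12 (14.5 and 14.6).

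Ratios within a library are free of its depth. They are given without a test, since an exact two-sided permutation test of 2 libraries against 2 cannot go below p = 0.333. Ezh2 stood 4.06- and 4.48-fold above its paralog Ezh1 in TPM in NC against 4.41- and 2.95-fold above it in KO, so the groups overlapped, with KO 2 the lowest of the 4 libraries. Tet3 was at 0.194 and 0.248 of the Tet2 TPM in NC and at 0.176 and 0.205 in KO, again with overlap. In counts, which are not divided by length, the groups did not overlap in these ratios. Tet3 to Tet2 was then 0.791 and 0.910 in NC against 0.616 and 0.584 in KO. Ezh2 to Ezh1 was 1.93 and 2.35 in NC against 1.86 and 1.495 in KO. The Dnmt3a to Dnmt3b ratio overlapped in counts as well as in TPM. A pair of further TPM ratios was chosen after the values were seen. The Tet2 to Dnmt1 ratio was 0.394 and 0.530 in NC against 0.714 and 1.15 in KO. The Uhrf1 to Dnmt1 ratio was 1.87 and 1.71 in NC against 1.60 and 1.67 in KO.

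The counts of other genes of these pathways are read against the 37.9% of all genes that changed. Of 20 further genes of the DNA methylation machinery 16 were tested, of which 7 fell and 1 rose, with a median log2 fold change of -0.05. Hells, a remodeller needed for methylation of compact chromatin, fell by 0.80 (adjusted p = 1.05e-06 by edgeR), and its partner Cdca7, itself an E2F and Myc target, fell by 0.73 (adjusted p = 4.33e-06 by edgeR). Trdmt1, a relative of the DNA methyltransferases that methylates transfer RNA, fell by 1.18, and Zfp57, which guards imprinted methylation, rose by 0.51. Ctcf, Pclaf, Lig1 and Trim28 made up the rest of the lower genes, and Pclaf and Lig1 work at the replication fork. Each of these 4 calls was lost without at least 1 library: Ctcf without NC 2 (-0.30, adjusted p = 0.0733 by edgeR), Lig1 without KO 2 (-0.21, adjusted p = 0.160 by edgeR), Trim28 without NC 1 or KO 2 (-0.28 and -0.25) and Pclaf without NC 1, NC 2 or KO 2 (-0.44, -0.47 and -0.41). Lig1 turned to 0.045 in the fit to log2 TPM. Dnmt3l, Dnmt3c, Ctcfl and Dppa3, genes of germ cells and early embryos, had no count. Without KO 2 the number that passed dropped from 8 to 5. Of 14 readers of methylated or unmethylated CpG 13 were tested, 3 rose and 1 fell. Zbtb4, a zinc finger protein that binds methylated CpG, rose by 0.44 (adjusted p = 0.00103 by edgeR), or by 0.28 without KO 2. Mbd3, a subunit of the NuRD complex, fell by 0.39, a call lost without KO 2 (-0.23, adjusted p = 0.115 by edgeR). Zbtb38 rose by 0.24, a call lost without NC 1 (adjusted p = 0.101 by edgeR), without NC 2 (adjusted p = 0.163 by edgeR) and without KO 1 (0.22).

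Downstream of the Tet enzymes, 18 of 19 genes of base excision and demethylation were tested, 6 rose and 4 fell. Gadd45a and Gadd45b, stress genes that have been linked to demethylation, rose by 1.86 and 1.35 (adjusted p = 4.94e-09 and 1.34e-08 by edgeR). Gadd45a went from 5.37 and 4.41 CPM in NC to 18.5 and 16.9 in KO, and 337 of its exon bases overlap the noncoding E230016M11Rik on the opposite strand. Ogt, the O-GlcNAc transferase that binds Tet proteins, rose by 0.78 (adjusted p = 7.01e-07 by edgeR), from 127 and 115 CPM to 189 and 225. Apex1, the endonuclease of base excision repair, fell by 0.84 (adjusted p = 1.26e-07 by edgeR), and 61.7% of its exon bases overlap Pip4p1 on the opposite strand, so its counts are uncertain. Among 16 genes of the methionine and S-adenosylmethionine cycle, which supplies the methyl groups, 13 were tested, 1 rose and 3 fell. Cbs, which drains homocysteine from the cycle, rose by 1.83 (adjusted p = 1.88e-05 by edgeR) at a low level of 1.58 and 1.73 CPM in NC and 5.92 in both KO libraries. Ahcy, which clears the product of methyl transfer, fell by 0.38 (adjusted p = 0.00176 by edgeR). The calls of Mtrr (-0.53) and Amd1 (-0.36) were lost without NC 1 or KO 2 (adjusted p by edgeR 0.0522 and 0.0928) and without KO 1 (adjusted p by edgeR 0.0779).

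Of the PRC2 partners 8 of 10 found were tested, 3 rose and 2 fell. Jarid2, which guides PRC2 to its targets, rose by 0.89 (adjusted p = 2.82e-06 by edgeR), from 17.3 and 18.3 CPM in NC to 32.6 and 33.5 in KO. Lcor, whose locus also encodes a PRC2 subunit, rose by 0.52 (adjusted p = 0.00304 by edgeR). Ezh1, the alternative catalytic subunit of cells that divide little, rose by 0.46 (adjusted p = 0.00232 by edgeR), from 41.1 and 33.7 CPM to 46.1 and 56.6, a call lost without NC 2 (0.33, adjusted p = 0.0627 by edgeR) and without KO 2 (0.31, adjusted p = 0.0551 by edgeR). Rbbp4, a histone chaperone shared by PRC2 and other complexes, fell by 0.45 (adjusted p = 0.000368 by edgeR), and the lower call of Rbbp7 (-0.23) had an adjusted p of 0.0466 by edgeR. The Rbbp7 call was lost with the replicate number as a block (adjusted p = 0.0529 by edgeR) and without NC 1, NC 2 or KO 2 (adjusted p 0.154, 0.151 and 0.181 by edgeR). Without NC 2 and without KO 2 the number that passed was 3. A list of 27 genes held PRC1, the complex that ubiquitinates histone H2A, and Bap1, Asxl1 and Asxl2, which act in removing that mark. Of these 25 were tested, 2 rose and 5 fell. Phc2 and Bmi1 fell by 0.63 and 0.43 (adjusted p = 6.45e-06 and 0.00201 by edgeR). Pcgf5 rose by 0.57, a call lost without NC 1 (0.40, adjusted p = 0.106 by edgeR). Of 6 enzymes that demethylate or acetylate lysine 27 of histone H3, only Kdm6b passed the edgeR test (0.30, adjusted p = 0.0241), and its call was lost without NC 1 (0.15, adjusted p = 0.385) and without KO 2 (0.21, adjusted p = 0.157).

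**Figure D5:**
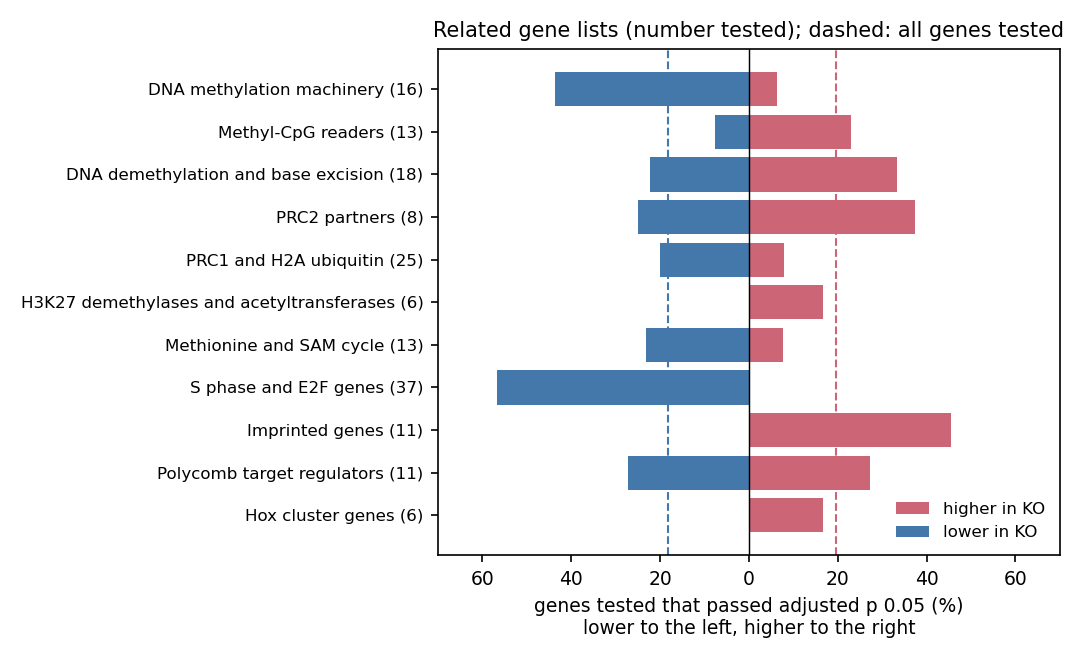
Share of the tested genes of each list that were higher or lower in KO at an adjusted p of 0.05 by edgeR, with the share over all genes, 19.7% higher and 18.2% lower, as dashed lines and the germline list, with 2 tested genes, left out. The S phase list has 21 of 37 genes lower and none higher. The imprinted list has 5 of 11 higher and none lower, and of these 5 Igf2 and Ascl2 were tested through their KO counts alone. The bar of that list was therefore partly set by the filter.

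Lists of genes known as targets of DNA methylation or PRC2 were read against all 54838 genes, of which 62.5% had no count in any library. Not all listed genes were silent here. Gnas and Dcn of the imprinted list, for example, had means of 979 and 1473 CPM in NC. Of a list of 24 methylation-silenced genes, mostly of germ cells, 15 had no count and 2 were tested. Rhox5, the 1 that changed, is expressed in many mouse tumour lines and fell by 0.51 (adjusted p = 0.00019 by edgeR), from 130 and 124 CPM in NC to 97.4 and 80.2 in KO. The other 23 summed to 19 counts in each NC library and 34 in each KO library. Most of these were Brdt, with 31 of 38 counts in NC and 47 of 68 in KO, which did not pass (log2 fold change 0.51, SE 0.41, adjusted p = 0.341 by edgeR), and the rest were too few to be tested. Of 36 imprinted genes 18 had no count and 11 were tested, of which 5 rose and none fell, with a median log2 fold change of 0.53. Igf2, Ascl2 and Nnat had 0 to 6 counts in each NC library and 10 to 28 in each KO library. These genes entered the test through their KO counts alone, so their direction was partly set by the filter. The 5 that rose include Igf2 and Ascl2, and the median includes Nnat as well. The 5 are 45.5% of the 11 tested, beside 37.9% of all genes tested. Neither the count nor the median is therefore read as a result about imprinted genes. Igf2r rose by 1.24 (adjusted p = 1.79e-06 by edgeR), from 6.95 and 6.28 CPM to 16.2 and 15.0, and Airn, the noncoding RNA that overlaps it in antisense, rose by 0.87, a call lost without KO 2 (0.60, adjusted p = 0.117 by edgeR). Igf2 (2.23) and Ascl2 (2.21) rose from very low levels, 0.528 and 0.144 CPM in NC to 1.29 and 1.78 in KO for Igf2, whose call was lost without NC 2 (1.53, adjusted p = 0.0589 by edgeR). In TPM the Igf2 groups overlapped, with 0.45 and 0.05 in NC against 0.43 and 0.64 in KO, and over all alternatives its log2 fold change ran from 0.31 to 3.33. Gm49394 overlaps 62.8% of the Igf2 exon bases on the same strand, so the Igf2 counts are uncertain. The number of imprinted genes that passed was 3 without NC 2 and 8 without KO 1.

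Of 40 developmental regulators known as Polycomb targets 21 had no count and 11 were tested, 3 higher and 3 lower. Wt1 rose by 2.69 (adjusted p = 0.000388 by edgeR) from 0.176 and 0.361 CPM in NC to 2.13 and 1.56 in KO. It had 2 and 5 counts in NC against 28 and 21 in KO. Wt1 thus entered the test through its KO counts alone, and its direction was partly set by the filter. Sox9 and Pax2 fell by 0.52 and 0.48 (adjusted p = 0.000313 and 0.000612 by edgeR). Tbx3 rose by 0.34, a call lost without NC 1 (0.26, adjusted p = 0.0947 by edgeR). Of 39 Hox genes 27 had no count and 6 were tested, and Hoxb13 alone passed (0.40, adjusted p = 0.0387 by edgeR), a call lost without NC 2, KO 1 or KO 2 (adjusted p by edgeR 0.310, 0.0586 and 0.116). Neither DNA methylation nor histone marks were measured in these libraries.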

How the data were processed

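RNA-seq was analysed from 4 libraries, 2 NC and 2 KO, grouped by their titles. The deposited files hold 1 row a gene. The authors' expected counts are RSEM estimates of reads for each gene without normalisation, per the file headers. The deposited TPM values are scaled by length and depth by the authors, and the deposited lengths are share-weighted, per the file headers. The authors' FPKM values were not used. The submitters' processing notes name FastQC, STAR, RSEM, DESeq2, GRCm38 and mm10. Their versions, the annotation and the strand setting are not given in the sources used here. RSEM splits reads shared by similar genes, and without the strand setting opposite-strand overlaps are uncertain: 5 of the 10 genes overlap the exons of an antisense or noncoding neighbour, each of which had at most 3 counts in a library.

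Expected counts were rounded to whole numbers. edgeR's filterByExpr left 12510 of 54838 genes, holding at least 99.9% of each library's counts. TMM factors were 0.981 to 1.02. The groups were compared in 1 fit over all genes with edgeR's quasi-likelihood test (edgeR 4.0.16, R 4.3.3, two-sided, group as the only term, all 4 libraries, Benjamini-Hochberg threshold 0.05), and the procedure was tested on simulated data. CPM uses the TMM-scaled library size. Library totals of 11597945 to 13910593 counts set the counting precision, and intervals cover counting error and the spread shared over genes (prior degrees of freedom 25.8). PCR copies were not separated from molecules. The alternatives were other scalings, filters and a robust fit, DESeq2 1.42.0, limma 3.58.1 on log2(TPM + 1) and log2(TPM + 0.1), a replicate block, and leaving out each library. IDs were matched to GENCODE M21 (GRCm38) without the version for 54809 genes and with it for 53947. Gene coordinates come from there and promoter windows from RefSeq (GRCm38.p6).

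All 10 genes are named, with Acvr2a and, for each list, up to 4 genes with the lowest p past the threshold, some of which are not reported here. Other list genes named, such as Ctcf, Pclaf, Lig1, Trim28 and Rbbp7, were chosen after their values were seen. The genes, lists and motifs were chosen with earlier results of these data known. None of the lists is therefore independent support.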

Additional observations from a re-analysis of the deposited data

How the results depend on the processing

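With 13 alternatives for each of the 9 tested genes, 117 values in all, 101 kept their direction and their side of the threshold, 7 kept the direction but no longer passed, and 9 turned direction, all in genes that had not passed. In the fits to log2(TPM + 1) and log2(TPM + 0.1) Dnmt3a turned to 0.13 and 0.15 and Eed to 0.19 and 0.20, and outside the 10 genes Lig1 turned to 0.045 and 0.046. With 1 library left out, the log2 fold change ranged from -0.17 to 0.43 for Dnmt3b, from -0.17 to 0.30 for Tet3 and from -0.068 to 0.11 for Suz12. The TPM fits, by limma, called fewer genes: 2158 and 2099 in all, against 4741, and 1 and 0 of the 10 genes, with 2 at an unadjusted p under 0.05 in both. By list, both TPM fits called 5 genes of the methylation machinery, 2 readers, 6 of demethylation, 1 PRC2 partner, 3 of PRC1, 1 of the methionine cycle, 13 of S phase and 3 Polycomb targets. They called 0 of the lysine 27 enzymes, 0 germline genes and 0 Hox genes, where 0, 1 and 2 genes had an unadjusted p under 0.05. DESeq2 called 4 genes of PRC1, 0 lysine 27 enzymes (1 at an unadjusted p under 0.05) and 0 Hox genes (0 unadjusted), and the edgeR fit with no filter on low counts called 0 Hox genes (1 unadjusted). Leaving out 1 library gave 5 to 8 genes of the methylation machinery, 3 to 5 PRC2 partners, 0 to 1 lysine 27 enzymes, 3 to 8 imprinted genes and 0 to 1 Hox genes. The labels number the replicates 1 and 2 in both groups. Same-numbered libraries did not deviate together over all genes (correlation -0.012 of their deviations). A single correlation over all genes cannot exclude a shared batch or pairing that touches some of them. With the replicate number as a block 5006 genes passed and 3 of the 10 genes did, and no call among the 10 changed. Among the other list genes the block lost the call of Rbbp7 and added E2f2, Gins2, Nnat, Phc3 and Pole. Depth limits Dnmt3b, with at most 34 counts, and Tet1, with 0.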
